A study of Mus musculus with 12 samples.

Results

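The genes described here encode the proteins of the cytosolic ribosome. They were taken by symbol (Rpl, Rps or Rplp followed by a number, without the Rps6k kinases), and 83 of the 24325 listed symbols matched. Of these, 78 reached 1 FPKM (fragments scaled to transcript length and to the library's fragment total) in at least 2 of the 12 libraries and are called the members below. They comprise 45 genes of the large subunit, the 3 genes of the P stalk and 30 genes of the small subunit. Because the members were chosen by level, their presence at these levels is no result. The last to pass were Rpl3l, Rpl9 and Rpl24, each at 1 FPKM or more in 2 libraries, and the first to miss were Rps13 and Rpl39l, each in 1 library. Rps12 peaked at 0.698 FPKM and Rpl11 at 0.215 FPKM. Rpl10l, a copy used in the mouse testis, was listed at 0 in every library.

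RNA came from B cells of the spleen of C57BL/6 mice, enriched on B220 beads. The cells were then stimulated by 25 µg/ml of lipopolysaccharide (LPS) over 4 days in culture. Every mouse, controls included, carried a green fluorescent protein (GFP) reporter in 1 Prdm1 allele (Prdm1+/gfp); Prdm1 encodes Blimp1, the transcription factor that drives plasma cell differentiation. The mice were Mzb1-/- (ko) or Mzb1+/+ (wt), where Mzb1 is an endoplasmic reticulum protein of B cells that assists the chaperone Hsp90b1. Cells were sorted as activated B cells (ActB: CD138- and GFP-), pre-plasmablasts (PrePB: CD138- and GFP+) and plasmablasts (PB: CD138+ and GFP+). Each genotype and population had 2 libraries of polyadenylated RNA. The labels do not say whether these came from separate animals. In wt cells the sex-linked transcripts given below show that the libraries of a population came from different mice, while in ko cells the spread between libraries may be technical. In bulk libraries, a change in the cells sorted and a change in RNA per cell cannot be told apart.

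Each ribosome holds a set of these proteins around its ribosomal RNAs. The small subunit reads the messenger RNA, the large subunit joins amino acids, and the P stalk (Rplp0, Rplp1, Rplp2) recruits elongation factors. Cells make the proteins in near equal amounts and degrade the excess. In mammals their messenger RNAs begin with a C followed by a run of pyrimidines, the 5′ terminal oligopyrimidine (TOP) tract, through which mTORC1 and Larp1 control their translation. Plasmablasts secrete large amounts of antibody, so the ribosome supply of these cells is of interest, but RNA levels as measured here say nothing on the rate at which these RNAs are translated.

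Summed FPKM per library ran from 418966 to 581262, with 10180 to 10466 genes at 1 FPKM or more. Mzb1 was at 926 and 1008 FPKM in ko plasmablasts, against 15434 and 17359 FPKM in wt plasmablasts. Summed plasmablast markers (5 genes, among them Xbp1 and Sdc1) ran from 191 to 293 FPKM in activated B cells of both genotypes and from 18970 to 25739 FPKM in plasmablasts. Summed markers of other cells were low beside these: 0.421 to 9.33 FPKM for T cells (mostly Cd3g after the first stage), 0.136 to 30.04 for macrophages and granulocytes (mostly Adgre1 in activated B cells), 0 to 1.81 for natural killer cells, 7.11 to 23.8 for dendritic cells (mostly Flt3) and 0 to 1.54 for erythroid cells. Small RNAs took 0.974% to 14.2% of the FPKM, the highest share being that of replicate 2 of ko pre-plasmablasts. Below 0.5 FPKM the libraries fell into 2 sets, called fragment patterns A and B: the most frequent ratio between 2 libraries held for 7.70% to 20.5% of genes within a set and for 2.13% to 4.89% across sets. Pattern A (8 libraries) held the 6 wt libraries together with ko replicate 1 of the activated B cells and of the pre-plasmablasts. Pattern B (4 libraries) held the other ko libraries, among them both from plasmablasts. In plasmablasts the pattern and the genotype cannot be told apart. Replicate 1 of each wt population also differed from the other 9 libraries in sex-linked transcripts, with Xist between 33.3 and 81.4 FPKM there and at no more than 0.389 FPKM elsewhere, and with the Y-linked Eif2s3y at 0 there and at 43.05 FPKM or more elsewhere. The replicate number thus goes with the source of the cells in wt mice, and fits with the number as a block are given beside the results that they change. The other 9 libraries include every ko library, so sex goes partly with genotype in each population.

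The levels listed for the members differed by several orders of magnitude, although FPKM is scaled to length. Of the 83 matching genes, 9 averaged 1000 FPKM or more over the 12 libraries, 21 lay between 100 and 1000, 27 between 10 and 100, 16 between 1 and 10, and 10 below 1. Among the highest means were those of Rpl41 (4450 FPKM), which encodes a very short basic peptide of the large subunit, Rpl8 (2653), Rps9 (2412) and Rplp1 (1644). The lowest of the members were Rpl3l (0.616), the paralog of Rpl3 in muscle, Rpl9 (0.639), Rpl24 (0.649), Rpl23a (0.823) and Rpl27 (0.937), the last 4 of them core proteins of every ribosome. Rpl5, which with Rpl11 carries the 5S ribosomal RNA and binds Mdm2, averaged 1.32 FPKM.

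These levels went with the amount of coding sequence that a gene shares with other annotated genes, pseudogenes included. Ribosomal protein genes have left many retrocopies in mammalian genomes, and 79 of 82 genes with coding sequence in the GENCODE vM21 transcripts (GRCm38) shared at least 1 stretch of 50 bases with an annotated pseudogene. Rpl7a shared with 119 pseudogenes, Rpl21 with 81 and Rpl29 with 77. In 47 genes, 80% or more of the coding 50-base windows also occurred in another gene, and their median level was 15.3 FPKM. In 29 genes the share was at least 20% and below 80%, with a median of 301 FPKM. In 6 genes it was below 20%, with a median of 549 FPKM. None of the 9 genes at 1000 FPKM or more shared over 60.4% of its windows. Across the 82 genes, the log2 of the mean level and the shared percentage of coding windows correlated at Spearman's rho = -0.49 and Pearson's r = -0.41. The rho was weaker for the shared percentage of all transcript windows (-0.24) and for the number of pseudogenes (-0.28). These values are a description across genes that are not independent replicates. The handling of fragments that map to several places is not stated in the sources used here, so low listed levels of shared genes are uncertain. The tests below compare levels only within a gene. Levels set side by side for parents and copies, and sums over members, carry this uncertainty.

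**Figure D1:**
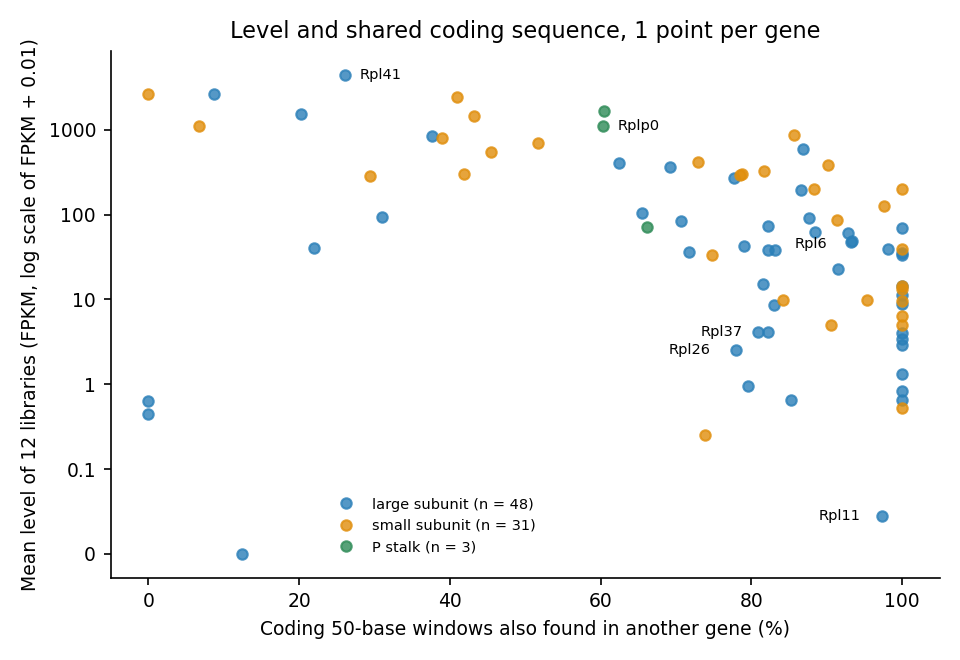
Mean level over 12 libraries (FPKM, log axis) against the percentage of coding 50-base windows that also occur in another gene, for 82 genes coloured by subunit. Genes at 80% or more have a median of 15.3 FPKM and genes below 20% a median of 549 FPKM, with a wide spread in each range.

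Some retrocopies that the files list as genes of their own stood at higher values than their parents. Among the partners sharing most windows with each gene, 10 had a matching transcript typed as a pseudogene. Of these, 5 averaged more than the parent and 5 less, such as Gm6654 (0.461 FPKM) beside Rps26 (413 FPKM). Copies whose matching transcript had another type, among them Rpl37rt, Rps15a-ps4 and Rps27rt, are outside this count, so it is not a full tally. Rpl26, a protein near the exit of the peptide tunnel, averaged 2.49 FPKM and its processed pseudogene Gm15772 averaged 240 FPKM. Rpl37, a zinc-binding protein of the large subunit, averaged 4.14 FPKM and its retrocopy Rpl37rt averaged 849 FPKM. The coding sequence of Rpl26 differed from Gm15772 at 2 of 435 bases, and that of Rpl37 differed from Rpl37rt at 1 of 291 bases. The stretches below, of 60 bases each from the GENCODE vM21 transcripts (GRCm38), show how little separates each parent (Rpl26 on chromosome 11, Rpl37 on chromosome 15) from its copy (both on chromosome 5). The capital marks the only base of the stretch that differs.
Rpl26: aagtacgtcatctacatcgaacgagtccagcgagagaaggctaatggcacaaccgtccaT
Gm15772: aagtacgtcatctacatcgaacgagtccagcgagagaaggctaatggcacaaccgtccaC
Rpl37: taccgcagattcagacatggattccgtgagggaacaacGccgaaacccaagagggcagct
Rpl37rt: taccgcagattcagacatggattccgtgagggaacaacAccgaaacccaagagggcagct
Rpl14 was itself high (mean 270 FPKM) and stood below Rpl14-ps1 (1156 FPKM), which differed at 4 of 648 aligned coding bases. Across the 12 libraries Rpl26 was listed between 0.000405 and 12.3 FPKM, while Gm15772 stayed between 134 and 299 FPKM.

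Summed over the 78 members, the level in ko cells was lower than in wt cells at the 2 later stages. The sum was 31131 and 29511 FPKM in ko activated B cells, against 27438 and 33193 FPKM in wt activated B cells, so that these groups overlapped. It was 21629 and 24154 FPKM in ko pre-plasmablasts, against 30784 and 27235 FPKM in wt pre-plasmablasts. It was 23947 and 27879 FPKM in ko plasmablasts, against 35048 and 33557 FPKM in wt plasmablasts. In pre-plasmablasts and plasmablasts both ko libraries lay below both wt libraries. As a share of the FPKM of all genes other than small RNAs, the members took 7.09% ± 0.449 (SD, n = 2) in ko and 7.09% ± 0.547 in wt activated B cells. The share was 4.80% ± 0.220 in ko and 5.72% ± 0.407 in wt pre-plasmablasts, and 4.91% ± 0.259 in ko and 6.05% ± 0.306 in wt plasmablasts. The sum rests on few genes, since the 5 highest members held 45.9% to 50.5% of it in every library.

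**Figure D2:**
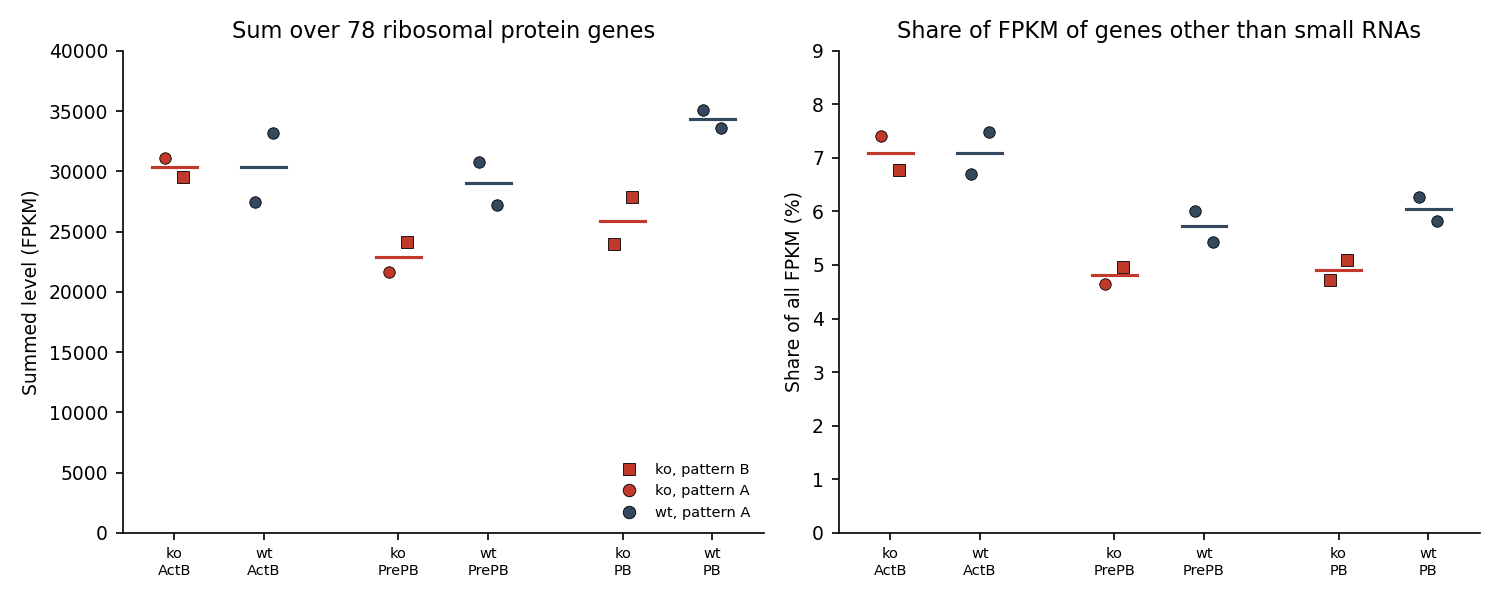
Left, summed level of the 78 members per library (FPKM). Right, their share of the FPKM of all genes other than small RNAs (%). Each point is 1 library, lines are group means, and squares mark libraries of fragment pattern B. Both ko libraries lie below both wt libraries in pre-plasmablasts and plasmablasts, and the genotypes overlap in activated B cells.

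The first comparison asked how the members change as wt B cells become plasmablasts. Most did not pass the test. In wt plasmablasts against wt activated B cells, 8 of 78 members rose and 11 fell (limma, adjusted p below 0.05). That is 19 members, where 62.0% of all 11069 genes tested were called, 31.0% in each direction. With quantile normalization 5 rose and 31 fell, and with equal library totals 4 rose and 38 fell. The median log2 change of the members was 0.05 and that of all genes was -0.01. In 20 members both wt plasmablast libraries lay above both wt activated B cell libraries (40.0% of all genes), and in 20 both lay below (41.0%). Those that rose included Rpl10, Rpl41, Rps27l, Rps24, Rpl34, Rps14 and Rps7, and the 11 that fell were Rpl26, Rpl24, Rpl15, Rpl7l1, Rps27, Rpl27, Rpl23a, Rpl31, Rpl39, Rpl27a and Rpl37a. Of those that fell, Rpl26, Rpl24 and Rpl23a reached 1 FPKM in no plasmablast library of either genotype. They passed the filter through the other populations alone, which favoured a fall, so their calls carry little weight. By subunit, 4 of 45 large and 4 of 30 small subunit genes rose, and 10 large and 1 small subunit genes fell. The count of higher members dropped to 5 without wt activated B cell replicate 1 or wt plasmablast replicate 1 and to 4 without replicate 1 of all 3 wt populations. The count of lower members dropped to 7 without wt activated B cell replicate 2. With the replicate block, 10 rose and 11 fell.

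Among the members that rose, Rps27l, a small subunit protein and p53 target that is the paralog of Rps27, had the smallest error. Rps27l stood at 374 and 398 FPKM in wt plasmablasts, against 209 and 232 FPKM in wt activated B cells. The groups did not overlap, and the log2 change was 0.81 (SE 0.09, adjusted p = 1.68e-05). Rps27 itself had 1.07 and 5.80 FPKM in wt plasmablasts, against 7.46 and 6.06 FPKM in wt activated B cells, and its call (log2 change -1.04, SE 0.41, adjusted p = 0.0476) was lost without wt plasmablast replicate 1 (-0.19, adjusted p = 0.511). Rpl41 had 6387 and 6309 FPKM in wt plasmablasts, against 3188 and 4037 FPKM in wt activated B cells. Its log2 change was 0.82 (SE 0.17, adjusted p = 0.00136), but with quantile normalization it was -0.57. Rps24, which is needed to process the small subunit's ribosomal RNA, had 399 and 386 FPKM in wt plasmablasts, against 220 and 261 FPKM in wt activated B cells (log2 change 0.71, SE 0.12, adjusted p = 0.000314). Rpl10, which completes the catalytic site late in assembly, had 112 and 74.9 FPKM in wt plasmablasts, against 36.5 and 29.9 FPKM in wt activated B cells. Its log2 change of 1.44 (SE 0.30, adjusted p = 0.00171) was the largest increase called, with the plasmablast libraries far apart but clear of the activated B cell libraries. The other calls of higher members were less stable. Rpl34 had 47.8 and 52.1 FPKM in wt plasmablasts, against 35.1 and 30.6 FPKM in wt activated B cells (log2 change 0.59, SE 0.17, adjusted p = 0.00952), and its call was lost in 4 of 15 alternative settings (highest adjusted p = 0.327). Its copy Rpl34-ps1 had 56.4 and 64.3 FPKM in wt plasmablasts, against 43.99 and 88.1 FPKM in wt activated B cells (log2 change -0.05, not called). Rps14 (log2 change 0.54) kept its call in 8 of 15 settings and Rps7 (0.51) in 7 of 15, with adjusted p up to 0.693 and 0.501.

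Among the members that fell, Rpl7l1 and Rpl15 had levels high enough to follow in each library. Rpl7l1, a paralog of Rpl7 that acts in the assembly of the large subunit, had 29.9 and 30.4 FPKM in wt plasmablasts, against 57.0 and 70.7 FPKM in wt activated B cells. Its log2 change was -1.05 (SE 0.10, adjusted p = 7.19e-06), and it was called lower under all 15 alternative settings, between -1.45 and -0.90. Rpl15, a large subunit protein altered in some families with Diamond-Blackfan anemia, had 8.45 and 7.23 FPKM in wt plasmablasts, against 18.1 and 23.6 FPKM in wt activated B cells (log2 change -1.30, SE 0.27, adjusted p = 0.0016). Every coding window of Rpl15 also occurs in another gene. Rpl39, which lines the peptide exit tunnel, had 169 and 165 FPKM in wt plasmablasts, against 258 and 321 FPKM in wt activated B cells (log2 change -0.78, SE 0.21, adjusted p = 0.00773). Rpl27, Rpl23a, Rpl31, Rpl27a and Rpl37a had log2 changes of -0.97, -0.91, -0.86, -0.74 and -0.55. The call was lost in 6 of 14 settings for Rpl23a and in 9 of 15 for Rps27, and Rpl31 was called in all 15. Rpl26 and Rpl24 had the lowest fitted changes, -3.03 and -1.79, from values near 0. Rpl26 was listed at 0.000987 and 0.00117 FPKM in wt plasmablasts, against 12.3 and 4.01 FPKM in wt activated B cells, while its copy Gm15772 had 299 and 244 FPKM in wt plasmablasts, against 210 and 299 FPKM in wt activated B cells. Rpl24 was listed at 0 in both wt plasmablast libraries, against 1.07 and 4.76 FPKM in wt activated B cells, the only libraries in which it reached 1 FPKM, so a gene that passed the filter in this way had to differ.

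The stalk genes and several others with known roles did not pass the test in this comparison, although the replicate block changed some of these calls. Rplp0 had 1256 and 1259 FPKM in wt plasmablasts, against 1012 and 1239 FPKM in wt activated B cells (log2 change 0.17, adjusted p = 0.309). Rplp1 and Rplp2 had log2 changes of -0.04 and 0.47. Rps6, the substrate of the S6 kinases, had 7.28 and 8.45 FPKM in wt plasmablasts, against 18.3 and 18.1 FPKM in wt activated B cells. Its groups did not overlap, yet its log2 change of -1.12 had an SE of 0.48 (adjusted p = 0.0645). The log2 change was 0.10 for Rpl3, part of the peptidyl transferase centre, and 0.92 for Rpl38, which favours the translation of Hox messenger RNAs in mouse embryos, neither past the test. Rpl22 and its paralog Rpl22l1, which Rpl22 represses in mice, had log2 changes of -0.26 and 0.22, both short of the test, and Gm15421, the copy of Rpl22l1, had one of 0.04. The same was true of Rpl5 (-0.10), Rps3 at the messenger RNA entry (0.16), Rps19, the gene most often altered in Diamond-Blackfan anemia (0.27), Rps4x (0.10), its paralog Rps4l (-0.40) and Rpl3l (0.36). Rps28 and Rpl19 ranked among the 10 highest changes, at 1.19 and 0.69, with SEs of 0.80 and 0.46. With the replicate block, Rplp2 (adjusted p = 0.0435), Rpl38 (0.0333) and Rps19 (0.038) were called higher and Rps4l (0.0209) lower, and the call of Rps27 was lost (0.0559).

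**Figure D3:**
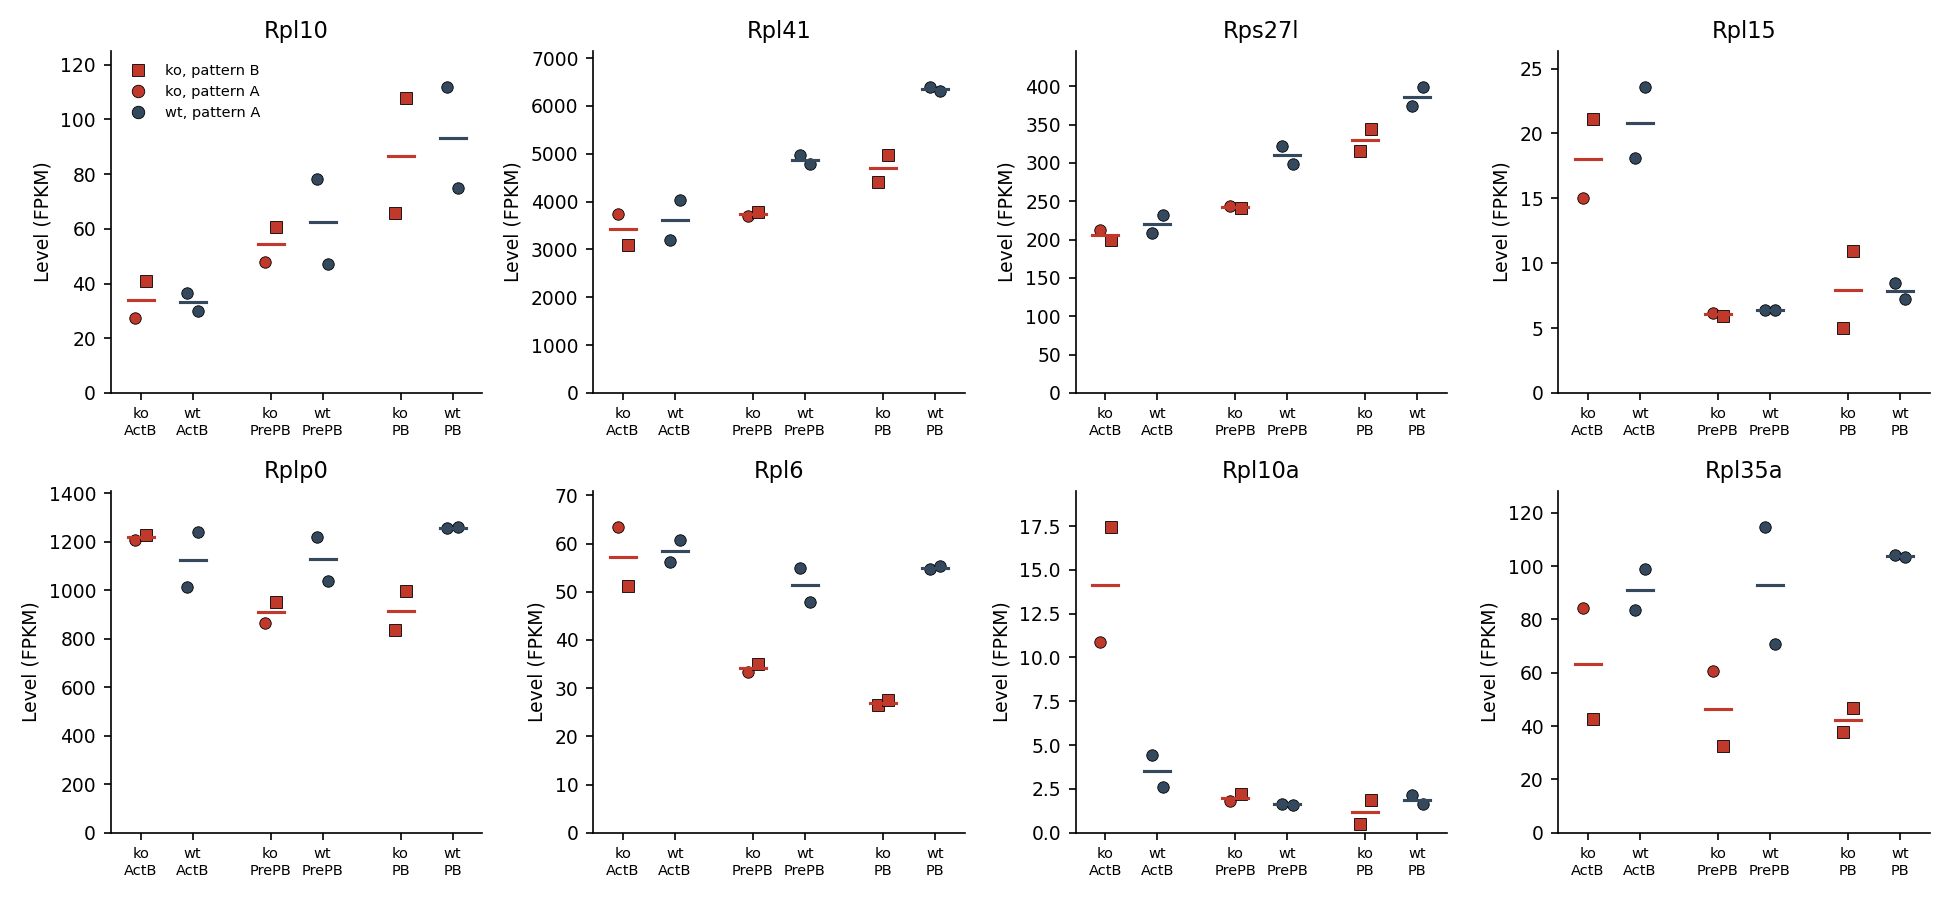
Level (FPKM) of 8 members in each of the 12 libraries, 1 point per library, with lines for group means and squares for fragment pattern B. Rpl10, Rpl41 and Rps27l are higher in plasmablasts than in activated B cells, Rpl15 is lower, and Rpl6 is at 26.4 and 27.5 FPKM in ko plasmablasts, against 54.7 and 55.3 FPKM in wt plasmablasts.

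Several of these changes were already present in pre-plasmablasts. In wt pre-plasmablasts against wt activated B cells, 4 members rose (Rps27l, Rpl10, Rpl41 and Rps24) and 9 fell. Of all genes, 27.1% rose and 26.3% fell (53.4% called). The median log2 change of the members was -0.16 against -0.02 for all genes. Both libraries lay below those of activated B cells in 26 members (38.6% of all genes). Rps27l had 322 and 298 FPKM in wt pre-plasmablasts, against 209 and 232 FPKM in wt activated B cells (log2 change 0.49, SE 0.09, adjusted p = 0.000843). Rpl15 was already at 6.39 and 6.41 FPKM in wt pre-plasmablasts, against 18.1 and 23.6 FPKM in wt activated B cells, and Rpl7l1 at 34.3 and 33.2 FPKM, against 57.0 and 70.7 FPKM. The higher count was 1 without replicate 1 of wt activated B cells or of wt pre-plasmablasts and 0 without replicate 1 of all 3 wt populations, and the lower count was 5 without wt activated B cell replicate 2. The replicate block gave 6 higher and 10 lower, with Rplp2 (log2 change 0.49, adjusted p = 0.0413) and Rpl38 (0.97, adjusted p = 0.0295) among those called higher. Between wt plasmablasts and wt pre-plasmablasts, where 8.73% of all genes were called (5.02% higher and 3.70% lower), 1 member rose and 1 fell. Rps10, a small subunit protein at the messenger RNA entry side, had 53.7 and 52.4 FPKM in wt plasmablasts, against 26.7 and 19.4 FPKM in wt pre-plasmablasts (log2 change 1.18, SE 0.32, adjusted p = 0.0444). Rpl27 fell, with 0.253 and 0.273 FPKM in wt plasmablasts, against 1.17 and 1.47 FPKM in wt pre-plasmablasts. The count of higher members was 0 without wt pre-plasmablast replicate 2, without either wt plasmablast library and without replicate 1 of all wt populations. The count of lower members was 0 without either wt pre-plasmablast library and without replicate 1 of all wt populations. With the replicate block 3 members were higher, Rpl10 (log2 change 0.58, adjusted p = 0.0122) and Rps27l (0.31, adjusted p = 0.0452) besides Rps10.

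In ko cells the same steps gave more lower members. In ko plasmablasts against ko activated B cells, 5 of 78 members rose and 26 fell, where 31.2% of all genes rose and 30.9% fell (62.2% called). Quantile normalization gave 3 and 45, and equal totals gave 2 and 51. The median log2 change of the members was -0.43 against -0.01 for all genes. In ko pre-plasmablasts against ko activated B cells, 1 rose and 37 fell, where 27.1% of all genes rose and 27.0% fell (54.2% called). The median there was -0.44 against -0.02. By shared coding windows (under 20%, 20% to under 80%, 80% or more), the ko plasmablast medians were -0.25, -0.35 and -0.61. The ko pre-plasmablast medians were -0.44, -0.46 and -0.43. The libraries did not overlap and were lower in 42 members in ko plasmablasts (41.1% of all genes) and in 48 in ko pre-plasmablasts (39.2%), and they were higher in 8 members in ko plasmablasts (40.1%). The member that rose in ko pre-plasmablasts was Rps27l, and none was called higher without replicate 1 of ko activated B cells or of ko pre-plasmablasts. The count of lower members in pre-plasmablasts was 21 without ko activated B cell replicate 1 and 19 without ko pre-plasmablast replicate 1. The replicate block gave 2 higher and 39 lower in ko pre-plasmablasts, adding Rpl10 (log2 change 0.68, adjusted p = 0.000903) to those that rose. The count of higher members in plasmablasts was 2 without replicate 2 of ko activated B cells or of ko plasmablasts. All 5 members that rose in ko plasmablasts (Rpl10, Rps27l, Rpl41, Rpl34 and Rps24) were among the 8 that rose in wt plasmablasts. Of the 26 that fell in ko plasmablasts, 6 (23.1%) also fell in wt plasmablasts, and these were 54.5% of the 11 called there. No member was called in opposite directions in the 2 genotypes at any step.

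The members called lower in ko plasmablasts included highly expressed genes. Rps9, which helps decoding accuracy, had 1810 and 2130 FPKM in ko plasmablasts, against 2860 and 2929 FPKM in ko activated B cells. Rplp0 had 835 and 996 FPKM in ko plasmablasts, against 1207 and 1227 FPKM in ko activated B cells (log2 change -0.42, SE 0.14, adjusted p = 0.0212), a call that 8 of 14 alternatives kept. In both genes the groups did not overlap. Larger changes were found in genes of lower level. Rpl27a had 14.3 and 20.01 FPKM in ko plasmablasts, against 52.1 and 45.9 FPKM in ko activated B cells (log2 change -1.48, SE 0.19, adjusted p = 4.97e-05). Rpl10a, a protein of the L1 stalk through which spent transfer RNA leaves, had 0.527 and 1.85 FPKM in ko plasmablasts, against 10.9 and 17.4 FPKM in ko activated B cells. Its log2 change of -2.83 (SE 0.30, adjusted p = 1.39e-05) was the lowest of the members. In wt activated B cells the gene had 4.46 and 2.59 FPKM, below both ko activated B cell libraries. Rpl12, at the base of the P stalk, had 0.514 and 0.977 FPKM in ko plasmablasts, against 5.36 and 5.19 FPKM in ko activated B cells (log2 change -1.86). Rpl7l1 fell as in wt cells, with 27.0 and 27.5 FPKM in ko plasmablasts, against 62.5 and 54.4 FPKM in ko activated B cells (log2 change -1.07, SE 0.10, adjusted p = 6.34e-06). Between ko plasmablasts and ko pre-plasmablasts, where 10.8% of all genes were called (6.57% higher and 4.24% lower), the 1 member called was Rps27l, with 315 and 344 FPKM in ko plasmablasts, against 243 and 242 FPKM in ko pre-plasmablasts (log2 change 0.44, adjusted p = 0.0121). With the replicate block 3 members were called higher. The call of Rps27l was lost without ko pre-plasmablast replicate 1 or ko plasmablast replicate 2, and 2 members were called higher without ko pre-plasmablast replicate 2 or ko plasmablast replicate 1.

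**Figure D4:**
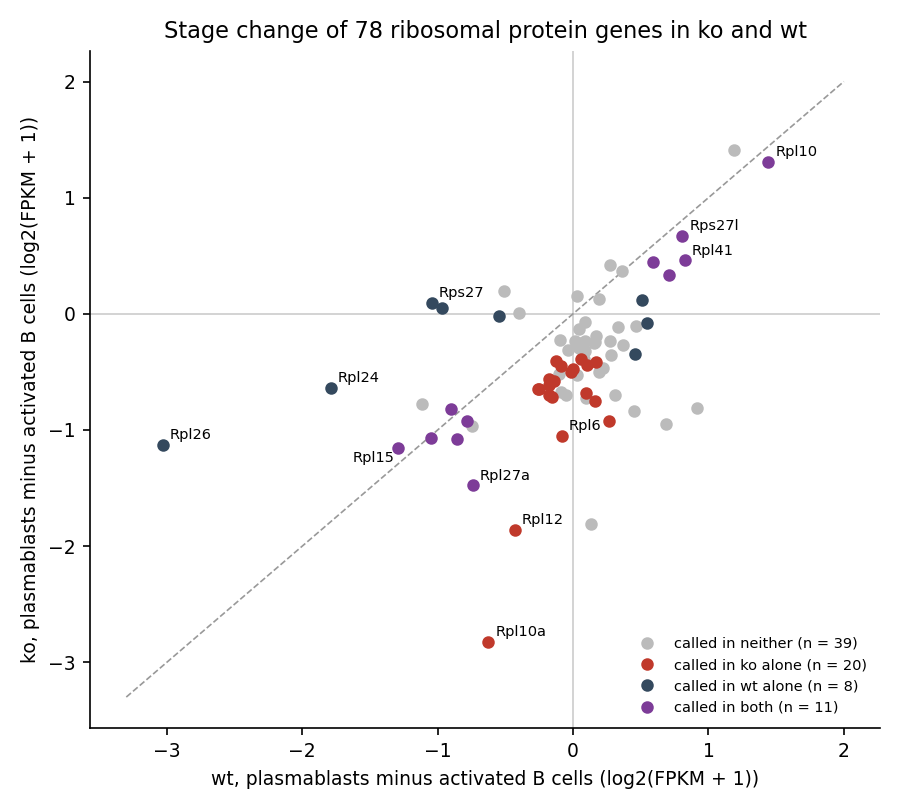
Log2 change from activated B cells to plasmablasts of the 78 members in ko cells (vertical) against wt cells (horizontal), coloured by where the change was called, with a dashed line of equal change. Most points lie below the line, with a median of -0.43 in ko and 0.05 in wt cells, and Rpl10, Rps27l and Rpl41 are higher in both.

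The genotype comparison asked whether loss of Mzb1 changes the members within a population. In plasmablasts, 67 of 78 members had a lower mean in ko than in wt libraries, against 44.7% of all genes, and the median log2 difference was -0.44 against 0.03 for all genes. That median was -0.33 in the 4 members with under 20% of coding windows shared. It was -0.42 in the 28 members at 20% to under 80% and -0.54 in the 45 members at 80% or more. The part of shared sequence in this difference was not tested. In 58 members both ko plasmablast libraries lay below both wt plasmablast libraries, a pattern found in 21.2% of all genes. In pre-plasmablasts, 73 of 78 members were lower in ko libraries, against 46.7% of all genes, with a median of -0.35, and 53 members were free of overlap in that direction, against 21.4% of all genes. In activated B cells, 49 of 78 were lower, against 48.5% of all genes, with a median of -0.07, and 9 were free of overlap in that direction, against 17.7%. Few of these differences passed the test. Only Rpl6 was called in plasmablasts, where 0.407% of all genes were called. With the replicate block, or without ko plasmablast replicate 2, the count of lower members was 2, and without wt plasmablast replicate 2 a member was also called higher. No member was called in pre-plasmablasts, where 0.117% of all genes were called (0.0181% lower), or in activated B cells, where 0.0542% were (0.0181% higher and 0.0361% lower). At an unadjusted p below 0.05, limma counted 50 members in plasmablasts, against 16.0% of all genes, 38 in pre-plasmablasts, against 15.0%, and 5 in activated B cells, against 8.07%. The sum of 6 B cell markers also differed, at 2485 to 2497 FPKM in ko and 1959 to 2111 FPKM in wt plasmablasts and at 3546 to 3736 FPKM in ko and 2877 to 2955 FPKM in wt pre-plasmablasts. The sum of 5 plasmablast markers overlapped in plasmablasts, at 18970 to 22134 FPKM in ko and 21979 to 25739 FPKM in wt, and was 8609 to 8666 FPKM in ko and 10778 to 11711 FPKM in wt pre-plasmablasts. Most of the pre-plasmablast sum was Jchain, at 6670 and 6785 FPKM in ko and 8738 and 9629 FPKM in wt. Xbp1 and Sdc1 were also lower in ko pre-plasmablasts without overlap, while Irf4 overlapped. Prdm1 went the other way, at 324 and 272 FPKM in ko and 233 and 268 FPKM in wt pre-plasmablasts. Marker sums of other cells, apart from erythroid cells, also lay higher in ko than in wt plasmablasts without overlap. Erythroid markers lay lower, at 0 to 0.064 FPKM in ko and 0.167 to 0.338 FPKM in wt plasmablasts. The higher sums were 2.25 to 4.09 FPKM in ko and 0.136 to 0.353 FPKM in wt for macrophages and granulocytes (S100a8 and S100a9 at 0 in both) and 5.75 to 9.33 FPKM in ko and 3.50 to 4.83 FPKM in wt for T cells. They stood at 1.08 to 1.81 FPKM in ko and 0 to 0.238 FPKM in wt for natural killer cells (Ncr1 at 0 in both) and at 8.07 to 9.46 FPKM in ko and 7.11 to 8.05 FPKM in wt for dendritic cells. Of the T cell genes, Cd3g had 5.46 and 8.17 FPKM in ko plasmablasts, against 4.12 and 3.19 FPKM in wt plasmablasts, while Cd8a was at 0 in both and Cd3e did not exceed 0.110 FPKM. In pre-plasmablasts macrophage and granulocyte markers summed to 1.10 to 4.34 FPKM in ko and 0.554 to 0.795 FPKM in wt. The part of any of these markers in the members' difference was not tested.

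Rpl6, a protein on the solvent side of the large subunit, had 26.4 and 27.5 FPKM in ko plasmablasts, against 54.7 and 55.3 FPKM in wt plasmablasts. The log2 difference was -1.001 (SE 0.11, adjusted p = 0.0031). In pre-plasmablasts Rpl6 had 33.4 and 34.9 FPKM in ko libraries, against 54.9 and 47.9 FPKM in wt libraries (log2 difference -0.57, SE 0.11, adjusted p = 0.0807). In activated B cells it had 63.4 and 51.2 FPKM in ko libraries, against 56.1 and 60.7 FPKM in wt libraries, and the genotypes overlapped. The plasmablast call was lost when the libraries were centred on the members' median (log2 difference -0.30, adjusted p = 0.154), with a term for the fragment pattern (-0.88, adjusted p = 0.113) and without replicate 1 of all wt populations (-1.01, adjusted p = 0.136), and 11 of 14 alternatives kept it. Most of the Rpl6 coding sequence (93.2% of its windows) also occurs in other genes.

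Other members came near the threshold in plasmablasts without passing it. Rpl23, a large subunit protein that also binds Mdm2, had 29.6 and 26.9 FPKM in ko plasmablasts, against 58.5 and 52.0 FPKM in wt plasmablasts (log2 difference -0.94, SE 0.17, adjusted p = 0.054). Rps2 had 205 and 240 FPKM in ko plasmablasts, against 383 and 334 FPKM in wt plasmablasts (log2 difference -0.69, SE 0.13, adjusted p = 0.054). Rps14, which contacts the decoding region, had 548 and 587 FPKM in ko plasmablasts, against 1044 and 972 FPKM in wt plasmablasts (log2 difference -0.83, SE 0.17, adjusted p = 0.0728). Rpl41 had 4405 and 4984 FPKM in ko plasmablasts, against 6387 and 6309 FPKM in wt plasmablasts (log2 difference -0.44, SE 0.17, adjusted p = 0.245). In all of them the ko libraries lay below the wt libraries. Rplp1 differed least among the stalk genes, with 1472 and 1696 FPKM in ko plasmablasts, against 1742 and 1650 FPKM in wt plasmablasts, and its groups overlapped. The members whose ko plasmablast libraries both lay above the wt plasmablast libraries were Rpl27, Rpl28, Rps21 and Rps4l, 4 of 78 where 28.0% of all genes had that order. Rps21 had 588 and 654 FPKM in ko plasmablasts, against 586 and 573 FPKM in wt plasmablasts. The largest fitted difference in each direction belonged to a gene with scattered libraries. Rpl35 had 33.4 and 36.6 FPKM in ko plasmablasts, against 35.3 and 1.71 FPKM in wt plasmablasts, and Rpl38 had 7.38 and 0.657 FPKM in ko plasmablasts, against 13.6 and 13.9 FPKM in wt plasmablasts. The next lowest did not overlap. Rpl12 had 0.514 and 0.977 FPKM in ko plasmablasts, against 3.38 and 4.31 FPKM in wt plasmablasts (log2 difference -1.48, SE 0.33, adjusted p = 0.0872). Rps10 had 12.8 and 27.1 FPKM in ko plasmablasts, against 53.7 and 52.4 FPKM in wt plasmablasts (log2 difference -1.46, SE 0.32, adjusted p = 0.0779). The next highest were Rps27, whose libraries overlapped (0.77, SE 0.41), and Rpl27, with 0.834 and 1.19 FPKM in ko plasmablasts, against 0.253 and 0.273 FPKM in wt plasmablasts (0.67, SE 0.21, adjusted p = 0.164). In pre-plasmablasts the lowest log2 differences were those of Rps6 (-1.43, SE 0.48), Rpl19 (-1.37, SE 0.46) and Rpl7a (-1.07, SE 0.33), and the highest were those of Rpl9 (0.95, SE 0.57), Rpl10a (0.19, SE 0.30) and Rpl23a (0.15, SE 0.31). In activated B cells they ran from -1.90 (SE 0.99) for Rpl26 to 1.74 (SE 0.30) for Rpl10a, none past the test.

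**Figure D5:**
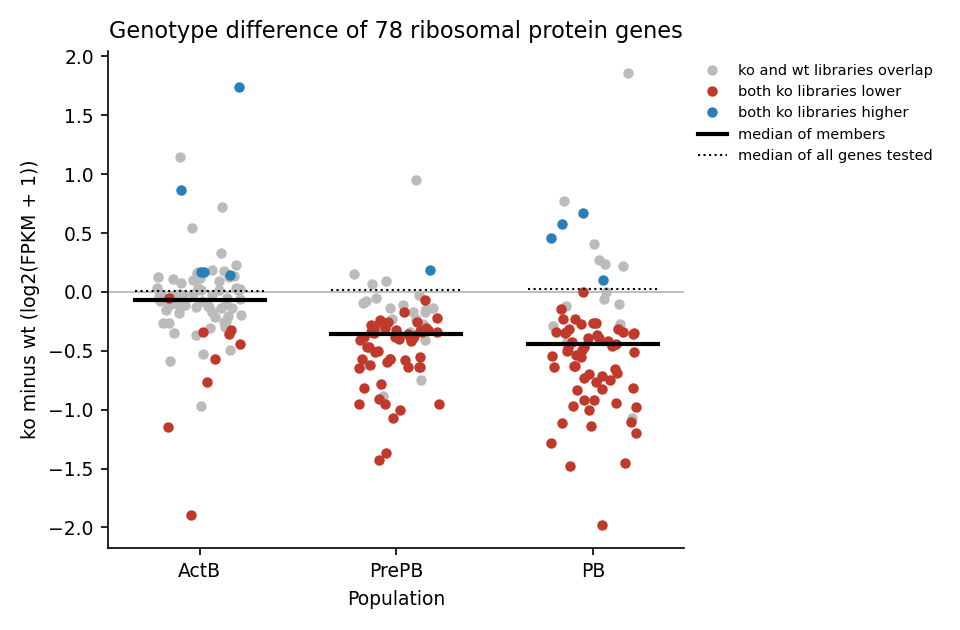
Log2 difference between ko and wt (log2 of FPKM + 1) for the 78 members in each population, 1 point per gene, red where both ko libraries lie below both wt libraries and blue where both lie above. The members' medians (thick lines) are -0.07 in activated B cells, -0.35 in pre-plasmablasts and -0.44 in plasmablasts, and those of all 11069 genes (dotted) are near 0.

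The fragment pattern was set beside this difference library by library. In pre-plasmablasts, 64 of 78 members in ko replicate 1, which follows pattern A as the wt libraries do, lay below both wt libraries (35.9% of all genes), and 57 did so in ko replicate 2 of pattern B (32.4% of all genes). The median log2 difference from the wt mean was -0.42 in replicate 1 and -0.28 in replicate 2. In plasmablasts, where both ko libraries follow pattern B, 67 members in replicate 1 (35.7% of all genes) and 59 in replicate 2 (31.1% of all genes) lay below both wt libraries. In activated B cells, 17 members did so in ko replicate 1 of pattern A (34.7% of all genes) and 38 in ko replicate 2 of pattern B (30.4% of all genes). Inside the 2 ko groups that hold both patterns, members differed in both directions. Of the 52 members with a mean of at least 20 FPKM, 33 were lower in the pattern B library of ko activated B cells (median log2 difference -0.13) and 19 in that of ko pre-plasmablasts (median 0.07), with 17 lower in both and 17 higher in both. Replicates that share a pattern also differed. In replicate 2, 50 of the 52 were lower in wt pre-plasmablasts (median -0.23), 36 in wt plasmablasts (-0.05), 4 in wt activated B cells (0.26) and 4 in ko plasmablasts (0.24). Across patterns, the SD of the difference over the 52 members was 0.36 in ko activated B cells and 0.44 in ko pre-plasmablasts. Within a pattern it was 0.35 in wt activated B cells, 0.23 in wt pre-plasmablasts, 0.55 in wt plasmablasts and 0.28 in ko plasmablasts. A difference of 0.5 or more in both ko activated B cells and ko pre-plasmablasts was found in 3 members, of which Rpl35a and Rpl7a were lower in pattern B and Rpl28 was higher (0.76 and 1.16). Rpl35a had 84.1 FPKM in pattern A and 42.7 FPKM in pattern B of ko activated B cells, and 60.6 and 32.5 FPKM in ko pre-plasmablasts. Rpl7a had 65.8 FPKM in pattern A and 33.3 FPKM in pattern B of ko activated B cells, and 39.1 and 18.9 FPKM in ko pre-plasmablasts. In plasmablasts Rpl35a stood at 37.9 and 46.9 FPKM in ko, against 104 and 103 FPKM in wt libraries, and Rpl7a at 23.9 and 34.0 FPKM in ko, against 64.0 and 63.9 FPKM in wt libraries. Across these 52 members, the difference between the ko activated B cell libraries (pattern B minus pattern A) and the difference between ko and wt plasmablasts correlated at r = 0.76 and rho = 0.76, a description across genes. For the ko pre-plasmablast libraries the same values were r = -0.03 and rho = 0.53. The part of the pattern in the plasmablast difference was not tested.

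The difference between genotypes in the stage change was itself tested as an interaction, and limma called no member. With the replicate block 1 member was called, Rpl10a, lower in the plasmablast minus activated B cell interaction (-2.20, adjusted p = 0.0362). The plasmablast minus activated B cell change was lower in ko than in wt cells for 64 of 78 members (47.5% of all genes), with a median difference of -0.40, where 0.0452% of all genes were called (0.0181% higher and 0.0271% lower). At an unadjusted p below 0.05 stood 19 members and 4.15% of all genes. For the pre-plasmablast minus activated B cell change, 67 of 78 were lower (49.5% of all genes), with a median of -0.29, where 0.0361% of all genes were called (0.0181% in each direction), and 10 members stood at an unadjusted p below 0.05, as did 3.57% of all genes. For the last step 0% of all genes were called, and 5 members had an unadjusted p below 0.05, against 2.46% of all genes. Rpl10a had the lowest interaction of the first of these tests, at -2.20 (SE 0.43, adjusted p = 0.329). The median interaction of -0.40 stood beside a median SE of 0.26.

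The promoter sequences were examined for the 2 letter patterns best known from these genes. RefSeq promoters (GRCm38.p6) were found for 62 of the 83 genes, 57 of them members, giving 74 promoters because some genes have several starts. A run of 10 or more C or T letters on the coding strand, within 10 bases before to 25 after the start, was found in 25.7% of the 74 promoters and in 5.61% of all 32851 promoters. The letters CCGGAAG on either strand, the core bound by GABP and other ETS factors, stood in 35.1% of the 74 promoters and in 8.86% of all, each over a window of 300 bases. The windows below hold 30 bases before and 20 after the start. They show members that were lower in plasmablasts of both genotypes (Rpl15, Rpl27a), a member that was higher in both (Rpl34), the S6 kinase substrate Rps6, and Rpl41 and Rps27l, which were higher in both with shorter runs. Capitals mark the longest C or T run found in that search, shown in full where it goes on past the 10 bases before the start.
Rpl15: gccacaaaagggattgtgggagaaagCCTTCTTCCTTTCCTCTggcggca
Rpl27a: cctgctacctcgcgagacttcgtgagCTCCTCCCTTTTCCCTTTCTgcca
Rpl34: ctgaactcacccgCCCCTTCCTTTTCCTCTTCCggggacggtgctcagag
Rps6: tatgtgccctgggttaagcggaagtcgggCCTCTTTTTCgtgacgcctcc
Rpl41: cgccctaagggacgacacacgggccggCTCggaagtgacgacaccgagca
Rps27l: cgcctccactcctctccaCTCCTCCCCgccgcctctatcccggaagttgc
They lie at chr14:18270967-18271016 (minus strand), chr7:109519165-109519214 (plus), chr3:130730318-130730367 (minus), chr4:86857348-86857397 (minus), chr10:128549149-128549198 (minus) and chr9:66946056-66946105 (plus) of GRCm38.p6, in the order shown. Rpl34 and Rps27l each have a further listed start. Long runs stood in genes that were lower (Rpl15, 17 letters; Rpl27a, 20) and in one that was higher (Rpl34, 20), and the runs of Rps27l and Rpl41 had 9 and 3 letters. A match is a description of letters and not of a factor bound there.

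Genes close to the members gave context for the same libraries. Their counts stand beside 31.2% of all genes that rose and 30.9% that fell in ko plasmablasts against ko activated B cells (62.2% called), and 31.0% in each direction in wt cells (62.0% called). Called shares above these were found for assembly factors (76.0% in ko and 80% in wt) and RNA polymerase I (78.6% in both), and shares below them for mitochondrial ribosomal proteins (52.6% in ko and 53.9% in wt) and respiratory chain subunits (47.8% in ko and 51.1% in wt). Of the 5 listed ribosomal proteins that the symbol rule left out, Rpl36al, the retrogene paralog of Rpl36a, rose to 614 and 652 FPKM in wt plasmablasts, against 268 and 294 FPKM in wt activated B cells (log2 change 1.17, SE 0.09, adjusted p = 1.26e-06), and Rpl36a had 5.08 and 3.49 FPKM in wt plasmablasts, against 6.72 and 8.94 FPKM in wt activated B cells. Among 13 elongation factors and other TOP messenger RNAs, 0 rose and 10 fell in ko plasmablasts against ko activated B cells (median log2 change -0.80), while 2 rose and 5 fell in wt cells (median -0.40). Among 36 initiation factors, 6 rose and 16 fell in ko cells and 8 rose and 9 fell in wt cells, with Eif5 higher in both (log2 change 1.11 in ko and 1.15 in wt). Among 25 ribosome assembly factors, 2 rose and 17 fell in ko cells and 2 rose and 18 fell in wt cells. Gnl3, a nucleolar GTPase, was higher (log2 change 0.90 in ko and 0.85 in wt), and Gtpbp4 was lower (-0.87 in ko and -0.73 in wt). Of 14 RNA polymerase I genes, which make ribosomal RNA, 0 rose and 11 fell in ko cells and 1 rose and 10 fell in wt cells, among them Polr1e at -1.21 in ko and -1.23 in wt cells. Of 16 genes of mTORC1 and TOP control, 7 rose and 3 fell in ko cells and 8 rose and 2 fell in wt cells, with Mdm2, the p53 ligase bound by Rpl5 and Rpl11, higher by 0.85 in ko and 1.04 in wt. Of 8 transcription factors linked to ribosomal protein genes, 0 rose and 4 fell in ko cells and 0 rose and 2 fell in wt cells, with Max, the partner of Myc, lower in both.

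Of 76 mitochondrial ribosomal proteins, 9 rose and 31 fell in ko plasmablasts against ko activated B cells (median log2 change -0.21), and 11 rose and 30 fell in wt cells (median -0.14). Of 92 respiratory chain subunits, 25 rose and 19 fell in ko cells (median -0.07), and 34 rose and 13 fell in wt cells (median 0.18). Between ko and wt plasmablasts no gene of either family was called, with medians of -0.17 and -0.21 where the cytosolic members had -0.44. The median was lower than that of the members for the elongation factors and other TOP messenger RNAs (-0.57). It was -0.37 for the ribosomal proteins that the symbol rule left out, -0.22 for initiation factors and -0.20 for assembly factors. In the elongation factor list 3 genes and among the initiation factors 1 gene were called lower in ko plasmablasts, where 0.145% of all genes were. The difference between these families or lists and the members was not tested.

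The scaling of the libraries changed how many members were called in the stage comparisons. When the FPKM were rescaled to 1 common total that leaves out small RNAs, the median of all genes moved to -0.38 in wt plasmablasts against wt activated B cells and to -0.27 in the ko comparison. Relative to the shifted median of all genes, the members' medians were then -0.70 against -0.27 in ko and -0.36 against -0.38 in wt cells. Rps27l, Rpl10 and Rpl7l1 were called in the same direction in plasmablasts of both genotypes under every setting tried.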

How the data were processed

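Per the submitters' processing notes, the sequencing runs were converted with bcl2fastq (0.3.1 and 2.17.1.14), aligned to mm9 with TopHat2 2.0.14 and quantified with Cufflinks 2.2.1, Cuffnorm 2.2.1 and Cuffdiff. The authors deposited 1 table of FPKM per library, and no counts, so the depth is unknown. The annotation, the scaling and the handling of fragments with several map positions are not given in the sources used here.

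The 12 libraries were grouped by the labels into 6 groups of 2. The members and the other gene lists were chosen with earlier results of these data known. The 11069 genes that reached 1 FPKM in 2 or more libraries were tested on log2(FPKM + 1), a scale that understates changes of low genes. The test was limma 3.58.1 with a mean trend (R 4.3.3), with 6 group coefficients and 6 residual degrees of freedom. All p-values are two-sided and were adjusted by Benjamini-Hochberg over all tested genes, and a gene was called at an adjusted p below 0.05. The fit was tested on simulated data. Library values are FPKM, and log2 changes and their SEs are on the log2(FPKM + 1) scale.

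Named by rule were the 10 highest and 10 lowest log2 changes in wt plasmablasts against wt activated B cells, the 3 highest and 3 lowest in each other comparison, called members where there were 6 or fewer, members with known roles and paralogs, the 5 highest and lowest means, and members at the edge of the filter. Further members were named after their values were seen as examples, among them Rps9, Rpl35a, Rpl7a, Rpl23 and Rps2. Results of some genes are not reported here.

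Alternatives were quantile normalization, no filter or 1 at 5 FPKM, 0.1 as pseudocount, equal totals without small RNAs, centring on the members, the compared groups alone, a replicate block, a term for the fragment pattern, pattern A libraries alone, and leaving out each library. Leaving out replicate 1 of all wt populations was chosen after seeing the data.

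Sequence windows of 50 bases came from GENCODE vM21 transcripts (GRCm38) and promoters from RefSeq (GRCm38.p6). Since the files use mm9, they were matched by symbol, and no coordinates were taken between builds. Python 3.11.15, pandas 2.3.3, scipy 1.17.1 and matplotlib 3.10.9 were used.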

Additional observations from a re-analysis of the deposited data

How the results depend on the processing

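Counts below are members called higher and lower, with the counts as reported in brackets; settings not named left a count within 1.5 times. In wt plasmablasts against wt activated B cells (8 and 11), no filter gave 4 and 7, quantile normalization 5 and 31, equal totals 4 and 38, and centring on the members 5 higher; leaving out libraries gave 4 to 10 higher and 7 to 10 lower. In wt pre-plasmablasts against wt activated B cells (4 and 9), higher members numbered 1 without a filter, and quantile normalization gave 2 and 30, equal totals 1 and 31, and centring 8 higher; leaving out libraries gave 0 to 5 and 5 to 11. In wt plasmablasts against wt pre-plasmablasts (1 and 1), no filter and quantile normalization gave 0 higher, the 5 FPKM filter 0 lower and centring 3 lower; leaving out libraries gave 0 to 1 in both directions. In ko plasmablasts against ko activated B cells (5 and 26), no filter gave 3 higher, quantile normalization 3 and 45, equal totals 2 and 51, and centring 8 and 9; leaving out libraries gave 2 to 5 and 18 to 33. In ko pre-plasmablasts against ko activated B cells (1 and 37), no filter gave 0 and 24, quantile normalization and equal totals 0 higher, centring 9 and 6, and the compared groups alone 2 higher; leaving out libraries gave 0 to 1 and 19 to 35. In ko plasmablasts against ko pre-plasmablasts (1 and 0), equal totals and centring gave 1 lower and the compared groups alone 0 higher; leaving out libraries gave 0 to 2 and 0 to 1. In ko against wt plasmablasts (0 and 1), lower members numbered 3 with the 5 FPKM filter or a pseudocount of 0.1, 2 with quantile normalization or equal totals, and 0 when the fragment pattern was a term, and centring gave 19 higher and 4 lower; leaving out libraries gave 0 to 1 higher and 0 to 2 lower. Centring also gave 1 higher in activated B cells and 3 higher and 3 lower in pre-plasmablasts between genotypes (0 as reported), 1 lower in the pre-plasmablast minus activated B cell interaction and 1 higher in the plasmablast minus pre-plasmablast interaction. Without ko activated B cell replicate 2, the plasmablast minus activated B cell interaction had 1 lower member, within a range of 0 to 1. Centring removes any shift that the members share, by construction; for the other settings the cause was not tested.

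Same-numbered libraries deviated together weakly within a genotype (r 0.046 to 0.316 over all genes) and not across genotypes (-0.11 to -0.047), so the correlations alone do not pair them. In wt cells the number also went with sex-linked transcripts, which ties same-numbered wt libraries to mice of 1 sex but not to 1 animal. The replicate block gave 3 higher in wt plasmablasts against wt pre-plasmablasts, 2 higher in ko pre-plasmablasts against ko activated B cells, 3 higher in ko plasmablasts against ko pre-plasmablasts, 2 lower in ko against wt plasmablasts and 1 lower in the plasmablast minus activated B cell interaction. It moved no other count by over 1.5 times.

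Where the reported fit or the alternative called a named member, its sign changed under rescaling alone. Sign changes of members called in neither fit were not counted, also where a library was left out. In wt plasmablasts against wt activated B cells, quantile normalization gave log2 changes of -0.57 for Rpl41, -0.0846 for Rps14, -0.48 for Rplp0, -0.46 for Rps3, -0.22 for Rps19 and -0.47 for Rps4x, and equal totals gave -0.245 for Rplp0, -0.25 for Rps3, -0.31 for Rpl3 and -0.32 for Rps4x. In wt pre-plasmablasts against wt activated B cells, quantile normalization gave -0.51 for Rplp0 and -0.28 for Rps19, and equal totals gave -0.24 for Rplp0. Centring gave 9e-04 for Rplp0 in ko plasmablasts against ko activated B cells. In ko pre-plasmablasts against ko activated B cells it gave 0.16 for Rplp0, 0.0087 for Rplp1, 0.19 for Rps3, 0.15 for Rps19, 0.0494 for Rpl3 and 0.0539 for Rps4x. In ko against wt plasmablasts it gave 0.60 for Rplp1, 0.58 for Rpl10, 0.55 for Rpl7l1, 0.43 for Rpl39 and 0.47 for Rps27l. Depth is unknown, so counting error behind low FPKM could not be set.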

Other observations

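Members of low level with a wide spread between the libraries of a group were not followed further. Rpl26 ran between 0.000405 and 3.80 FPKM within ko activated B cells, and Rpl35 between 1.71 and 35.3 FPKM within wt plasmablasts. Rpl10a had 10.9 and 17.4 FPKM in ko activated B cells, against 4.46 and 2.59 FPKM in wt activated B cells, a log2 difference of 1.74 (SE 0.30) in the direction opposite to most members, which did not pass the test (limma, adjusted p = 0.161). Every library of both genotypes stood at or below 2.23 FPKM for this gene in pre-plasmablasts and plasmablasts.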
